A study of Mus musculus with 24 samples.

Results

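The genes described here are the ADAMTS proteases, the ADAMTS-like proteins, the matrix metalloproteinases (MMPs) and the tissue inhibitors of metalloproteinases (TIMPs). A list of 35 gene symbols was looked up in the deposited table, and 31 had a probe set annotated to that gene alone, out of 18193 genes in the whole table. Adamts2, Adamts14, Adamts17 and Mmp15 were not analysed here. Where a gene had more than 1 probe set, the one with the highest mean over the 24 arrays stood for it. All 31 also passed the filter on low values, as did 14879 genes in total.

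RNA came from the jaws of mouse embryos of a C57B6 background at embryonic day 12.5. In the knockout embryos a floxed Tgfbr2 gene, the gene of a TGF-beta receptor chain, was deleted with Wnt1-Cre. Wnt1-Cre is active in the cranial neural crest, whose cells form most of the facial mesenchyme, so cells of other origin such as muscle, endothelium and surface epithelium keep the gene. Control embryos were littermates of unstated genotype. Cleft palate and skull defect are named as traits of the mutants, and no values here show how embryos of this stage were picked. The mandible and the maxilla were each cut into a distal and a proximal end, giving 8 groups of 3 arrays: control and knockout, in the distal mandible, proximal mandible, distal maxilla and proximal maxilla. No label ties the 3 arrays of a group to separate embryos, and p-values here measure only the spread between arrays, which may be partly technical. The control arrays numbered 2 differed from the other control arrays in the sex-linked genes given below, so they came from other embryos. For the remaining arrays this is not known.

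ADAMTS proteases are secreted zinc enzymes that bind the extracellular matrix through thrombospondin repeats. Some remove the ends of fibrillar procollagens, some cut the proteoglycans aggrecan and versican, and some act on fibrillin microfibrils. MMPs are related zinc enzymes, either secreted or held at the cell surface, that cut collagens, basement membrane and growth factor carriers, and TIMPs block them in their active site. In the embryonic face, cleavage of versican by ADAMTS enzymes is known to be needed for palate closure, and MMPs act in tissue remodelling around vessels, cartilage and bone. TGF-beta is known to raise Timp1 in cultured fibroblasts.

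All values are log2 signal as deposited, so a difference of 1 is a doubling. Array medians lay between 7.26 and 7.38, and the 30th percentile of an array, used as the floor, lay between 5.85 and 5.93. A group value is a mean ± SD over n = 3 arrays. Changes are differences of group means from limma, with their standard error (SE) and a p-value adjusted by Benjamini-Hochberg over 14879 genes, and "called" means an adjusted p under 0.05. Signal depends on the probes, so levels of different genes are not compared.

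Several arrays stood apart. Tgfbr2 itself lay at 11.3 to 12.2 in the controls and at 11.3 to 12.7 in the knockouts, a difference of 0.34 (SE 0.11, adjusted p = 0.112, limma). Its signal was thus not lower in the arrays labelled knockout. No source used here says whether its probe sets lie in the deleted part, so they may check nothing about the labels, and "knockout" means the label throughout. The Y-linked gene Eif2s3y read 10.2 to 10.4 in the 4 control arrays numbered 2 and 3.42 to 3.88 in the other 20, with Xist the other way round. The labels do not say whether arrays of 1 number came from the same embryos. In 7 of the 24 arrays the correlation across genes was higher with the jaw's opposite end than with the own group, which included both ends of control maxilla 1 and of knockout mandible 1. The others were control maxilla distal 2, knockout mandible distal 2 and knockout maxilla proximal 3. Knockout maxilla proximal 3 correlated at 0.20 with its own group, the lowest of the 24, and at 0.38 with the distal end. The neuron markers averaged 12.46, 12.25 and 10.38 in the 3 proximal knockout maxilla arrays and 8.01 to 10.37 in the other arrays. Mandibular identity genes (Dlx3, Dlx5, Dlx6, Hand1, Hand2) read 10.13 to 10.71 in mandible arrays and 7.77 to 8.78 in maxilla arrays. Results that rest on these arrays are given with and without them.

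Of the procollagen N-proteinases, Adamts3 was the member measured. It trims fibrillar procollagens and activates the lymphatic growth factor Vegfc. Adamts3 averaged 9.32 ± 0.16 distally and 9.89 ± 0.15 proximally in the control mandible, against 10.26 ± 0.16 and 10.31 ± 0.01 in the control maxilla. Knockout arrays gave 9.42 ± 0.44, 9.81 ± 0.10, 10.11 ± 0.27 and 9.75 ± 0.49 in that order. Its lowest group was thus the control distal mandible and its highest the control proximal maxilla.

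Among the aggrecanases and versicanases, Adamts1 cuts versican and aggrecan and is needed for kidney and ovary development. In controls the Adamts1 means were 8.98 ± 0.47 and 10.46 ± 0.15 at the distal and proximal mandible and 9.52 ± 0.47 and 9.69 ± 0.43 at the distal and proximal maxilla. In the knockouts Adamts1 stood at 10.11 ± 0.84, 10.53 ± 0.22, 9.68 ± 0.15 and 10.08 ± 0.30. It was lower in the control distal mandible than in the other 7 groups. Adamts4 is an aggrecanase of cartilage and brain. For Adamts4 the control groups stood at 9.56 ± 0.17 (distal mandible), 9.34 ± 0.06 (proximal mandible), 9.02 ± 0.22 (distal maxilla) and 9.02 ± 0.20 (proximal maxilla). Its knockout counterparts were 9.36 ± 0.10, 9.36 ± 0.08, 9.21 ± 0.25 and 9.13 ± 0.06. Adamts4 varied little, with all 24 arrays between 8.79 and 9.75. Adamts8 cuts aggrecan weakly and was described in lung and heart. Adamts8 averaged 8.29 ± 0.38 distally and 7.53 ± 0.14 proximally in the control mandible, against 6.84 ± 0.15 and 6.79 ± 0.06 in the control maxilla. Adamts8 in the knockouts gave 7.73 ± 0.11, 7.62 ± 0.51, 6.71 ± 0.19 and 6.92 ± 0.21, in the same order. Every mandible group exceeded every maxilla group. Adamts9 cuts versican in the palate and in vessels. In controls the Adamts9 means were 10.47 ± 0.29 and 11.53 ± 0.08 at the distal and proximal mandible and 10.47 ± 0.60 and 10.76 ± 0.35 at the distal and proximal maxilla. Among knockout groups the means were 11.31 ± 0.52, 11.63 ± 0.12, 10.81 ± 0.35 and 11.15 ± 0.28. The proximal mandible was its highest site in both genotypes. Adamts20, whose loss causes the white belt of belted mice, acts with Adamts9 in palate closure. For Adamts20 the control groups stood at 12.13 ± 0.24 (distal mandible), 11.47 ± 0.32 (proximal mandible), 12.65 ± 0.19 (distal maxilla) and 12.40 ± 0.22 (proximal maxilla). The knockout means, in the same order, were 11.61 ± 0.32, 11.48 ± 0.07, 12.27 ± 0.16 and 11.35 ± 0.31. Its highest groups were the control maxilla and its lowest the knockout proximal maxilla. Adamts5 ranged from 8.56 to 10.69 over the 24 arrays and Adamts15 from 9.00 to 11.02.

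Of the other ADAMTS proteases, Adamts6 acts on fibrillin microfibrils and is needed in the heart. Adamts6 averaged 8.83 ± 0.13 distally and 8.43 ± 0.12 proximally in the control mandible, against 8.71 ± 0.41 and 8.81 ± 0.11 in the control maxilla. Knockout arrays gave 8.08 ± 0.04, 8.18 ± 0.28, 8.32 ± 0.14 and 8.53 ± 0.15 in that order. Each knockout mean lay below the control mean of the same region. Adamts10 binds fibrillin and is mutated in Weill-Marchesani syndrome. In controls the Adamts10 means were 9.96 ± 0.04 and 10.40 ± 0.08 at the distal and proximal mandible and 10.14 ± 0.05 and 10.24 ± 0.12 at the distal and proximal maxilla. In the knockouts Adamts10 stood at 10.22 ± 0.25, 10.34 ± 0.29, 10.22 ± 0.44 and 10.36 ± 0.25. These means stayed close to each other, between 9.96 and 10.40. Adamts19 has been linked to heart valve disease. For Adamts19 the control groups stood at 6.91 ± 0.59 (distal mandible), 5.86 ± 0.07 (proximal mandible), 7.17 ± 0.51 (distal maxilla) and 6.80 ± 0.92 (proximal maxilla). Its knockout counterparts were 6.08 ± 0.50, 6.05 ± 0.13, 6.90 ± 0.32 and 5.72 ± 0.40. In 6 of the 24 arrays Adamts19 lay below the floor, so its low values are bounds set by the background. Over all arrays Adamts7 ranged from 9.17 to 9.66, Adamts12 from 7.72 to 10.07, Adamts16 from 7.64 to 8.04 and Adamts18 from 6.20 to 8.22.

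The ADAMTS-like proteins have no protease domain and sit in the matrix. Adamtsl1 is a secreted matrix glycoprotein. Adamtsl1 averaged 9.34 ± 0.47 distally and 8.79 ± 0.20 proximally in the control mandible, against 8.87 ± 0.56 and 9.02 ± 0.05 in the control maxilla. Adamtsl1 in the knockouts gave 9.15 ± 0.35, 9.08 ± 0.31, 8.88 ± 0.67 and 9.11 ± 0.19, in the same order. Its 24 arrays ranged from 8.12 to 9.67. Adamtsl2 binds fibrillin and the latent TGF-beta binding protein Ltbp1, and its loss causes geleophysic dysplasia. In controls the Adamtsl2 means were 8.08 ± 0.13 and 8.22 ± 0.19 at the distal and proximal mandible and 7.98 ± 0.41 and 8.21 ± 0.25 at the distal and proximal maxilla. Among knockout groups the means were 8.48 ± 0.18, 8.37 ± 0.09, 8.05 ± 0.32 and 8.69 ± 0.17. The knockout proximal maxilla was its highest group. Adamtsl3 is a related matrix protein. For Adamtsl3 the control groups stood at 8.73 ± 0.12 (distal mandible), 7.25 ± 0.23 (proximal mandible), 7.51 ± 0.07 (distal maxilla) and 7.49 ± 0.29 (proximal maxilla). The knockout means, in the same order, were 7.75 ± 0.57, 7.34 ± 0.67, 7.54 ± 0.28 and 7.27 ± 0.39. The control distal mandible stood out, more than 1 above each of the other control groups.

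The secreted MMPs began with Mmp2, gelatinase A, which mesenchyme makes broadly. Mmp2 averaged 12.57 ± 0.05 distally and 12.60 ± 0.04 proximally in the control mandible, against 12.73 ± 0.05 and 12.81 ± 0.04 in the control maxilla. Knockout arrays gave 12.63 ± 0.07, 12.68 ± 0.05, 12.83 ± 0.24 and 12.72 ± 0.17 in that order. Its 24 arrays spanned only 12.54 to 13.09. Mmp9, gelatinase B, is made by osteoclasts, macrophages and invading vessels. In controls the Mmp9 means were 7.88 ± 1.18 and 8.02 ± 0.21 at the distal and proximal mandible and 6.67 ± 0.42 and 6.76 ± 0.23 at the distal and proximal maxilla. In the knockouts Mmp9 stood at 8.81 ± 0.13, 8.72 ± 0.93, 6.94 ± 0.61 and 7.25 ± 0.35. All 4 mandible means exceeded all 4 maxilla means. Mmp11, stromelysin 3, is a stromal enzyme of remodelling tissue. For Mmp11 the control groups stood at 10.56 ± 0.07 (distal mandible), 10.70 ± 0.03 (proximal mandible), 10.30 ± 0.22 (distal maxilla) and 10.34 ± 0.02 (proximal maxilla). Its knockout counterparts were 10.57 ± 0.18, 10.69 ± 0.05, 10.46 ± 0.21 and 10.33 ± 0.13. Mmp19 was at the edge of detection, below the floor in 21 of the 24 arrays and between 5.57 and 6.05 in all of them. Mmp19 averaged 5.89 ± 0.05 distally and 5.91 ± 0.12 proximally in the control mandible, against 5.64 ± 0.07 and 5.65 ± 0.06 in the control maxilla. Mmp19 in the knockouts gave 5.72 ± 0.13, 5.83 ± 0.20, 5.73 ± 0.09 and 5.75 ± 0.03, in the same order. Its differences are therefore differences near background.

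Among the membrane-bound MMPs, Mmp14 activates proMmp2 and is the main collagenase of mesenchymal cell surfaces. In controls the Mmp14 means were 12.46 ± 0.06 and 12.39 ± 0.08 at the distal and proximal mandible and 12.40 ± 0.06 and 12.48 ± 0.03 at the distal and proximal maxilla. Among knockout groups the means were 12.57 ± 0.07, 12.62 ± 0.14, 12.52 ± 0.20 and 12.55 ± 0.15. The whole range of Mmp14 was 12.31 to 12.77. Mmp17 is anchored by a lipid. For Mmp17 the control groups stood at 7.96 ± 0.10 (distal mandible), 7.93 ± 0.06 (proximal mandible), 7.63 ± 0.10 (distal maxilla) and 7.57 ± 0.17 (proximal maxilla). The knockout means, in the same order, were 8.12 ± 0.09, 8.08 ± 0.04, 8.04 ± 0.13 and 7.81 ± 0.31. The control maxilla held its lowest means. Mmp24 is best known from neurons. Mmp24 averaged 6.91 ± 0.14 distally and 7.19 ± 0.08 proximally in the control mandible, against 6.95 ± 0.11 and 6.93 ± 0.12 in the control maxilla. Knockout arrays gave 6.90 ± 0.05, 7.02 ± 0.04, 6.82 ± 0.03 and 8.20 ± 1.00 in that order. The large SD of the knockout proximal maxilla came from arrays 1 and 2, at 8.89 and 8.67, against 7.05 in array 3. Mmp16 ranged from 9.25 to 10.47 and Mmp23 from 7.42 to 8.87.

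The TIMPs were the inhibitors measured. Timp1 inhibits most soluble MMPs. In controls the Timp1 means were 9.40 ± 0.10 and 9.58 ± 0.08 at the distal and proximal mandible and 8.81 ± 0.33 and 8.97 ± 0.40 at the distal and proximal maxilla. In the knockouts Timp1 stood at 9.62 ± 0.23, 9.81 ± 0.28, 8.98 ± 0.42 and 9.27 ± 0.14. Mandible means were above maxilla means within each genotype. Timp2 both inhibits Mmp2 and helps Mmp14 to activate it. For Timp2 the control groups stood at 12.25 ± 0.10 (distal mandible), 12.38 ± 0.07 (proximal mandible), 12.33 ± 0.11 (distal maxilla) and 12.41 ± 0.06 (proximal maxilla). Its knockout counterparts were 12.45 ± 0.22, 12.45 ± 0.07, 12.41 ± 0.27 and 12.34 ± 0.18. Timp2 stayed between 12.13 and 12.69. Timp3 binds the matrix and also inhibits several ADAMTS enzymes. Timp3 averaged 10.88 ± 0.37 distally and 11.30 ± 0.19 proximally in the control mandible, against 10.38 ± 0.34 and 10.55 ± 0.21 in the control maxilla. Timp3 in the knockouts gave 11.14 ± 0.31, 11.31 ± 0.13, 10.52 ± 0.21 and 11.16 ± 0.39, in the same order. Its lowest means were in the control maxilla and in the distal knockout maxilla. Timp4, an inhibitor best known from heart and brain, lay close to the floor at 5.96 to 6.56. In controls the Timp4 means were 6.33 ± 0.09 and 6.18 ± 0.04 at the distal and proximal mandible and 6.12 ± 0.05 and 6.06 ± 0.04 at the distal and proximal maxilla. Among knockout groups the means were 6.21 ± 0.22, 6.25 ± 0.13, 6.06 ± 0.09 and 6.31 ± 0.23. Timp1, Timp3 and Timp4 each lie within a synapsin gene in the RefSeq gene table (Syn1, Syn3 and Syn2), and Adamts1 and Adamts5, like Adamts8 and Adamts15, are neighbours.

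**Figure D1:**
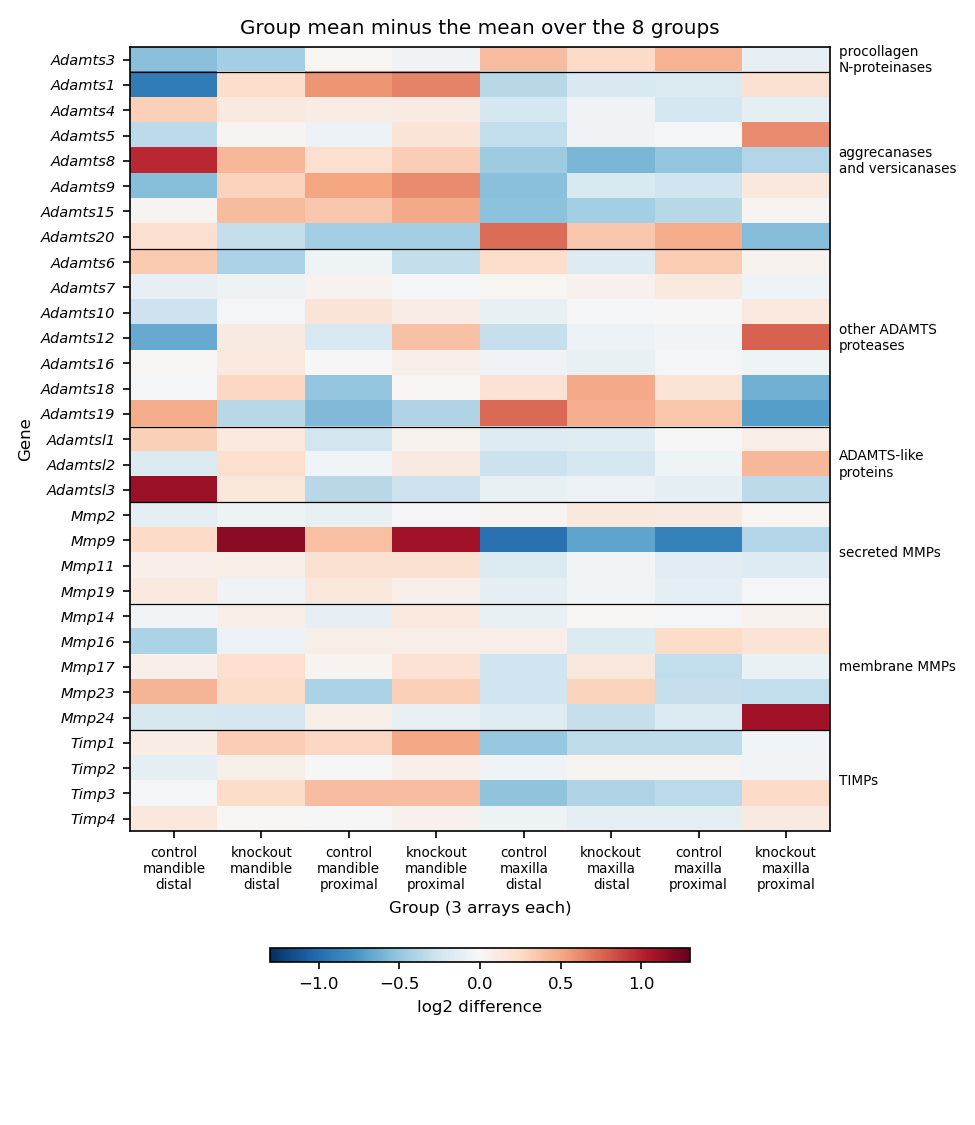
Heat map of the 31 genes (rows, by role) over the 8 groups of 3 arrays (columns); colour is the log2 difference of a group mean from the gene's mean over the 8 groups. Adamts8 and Mmp9 are red in the mandible columns and blue in the maxilla columns, Adamtsl3 is darkest in the control distal mandible, and Mmp24 in the knockout proximal maxilla.

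Knockout was first compared with control as the mean over the 4 regions, which asks what loss of Tgfbr2 in Wnt1-Cre cells did across the jaws. No member was higher and 2 were lower: Adamts20, by 0.48 on average, and Adamts6. Over all genes 0.47% were called, 0.282% higher and 0.188% lower, and 2 of 31 members is a small number to set against that. The median change of the members was 0.07, against 0.01 over all genes, and 23 of 31 were positive. A further 12 members had an unadjusted p under 0.05, which brought the total to 14 of 31, against 23.2% of all genes. Fewer cells of a type and less RNA per cell cannot be told apart in these bulk samples, here and below.

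Adamts20 ran from 11.14 to 12.85 with a median of 12.27 in the 12 control arrays and from 11.09 to 12.37 with a median of 11.61 in the 12 knockout arrays, so the 2 sets overlapped. By region the control arrays read 12.27, 11.85 and 12.28 in the distal mandible and 11.50, 11.14 and 11.78 in the proximal mandible. The distal maxilla controls read 12.62, 12.47 and 12.85, and the proximal ones 12.56, 12.49 and 12.15. In the knockouts the distal and proximal mandible read 11.26, 11.67 and 11.90, and 11.55, 11.41 and 11.49. Both ends of the knockout mandible thus overlapped their controls, the distal end only where a knockout at 11.90 exceeded a control at 11.85. The knockout distal maxilla read 12.09, 12.37 and 12.36 and the proximal maxilla 11.27, 11.09 and 11.70, both wholly below their controls. The change over the regions was -0.48 (SE 0.095, adjusted p = 0.0347), made up of -0.52, 0.01, -0.37 and -1.05 in the order just used.

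Adamts6 spanned 8.30 to 9.13 with a median of 8.73 in the controls and 7.91 to 8.64 with a median of 8.26 in the knockouts. In the distal mandible the controls read 8.98, 8.74 and 8.76 and the knockouts 8.04, 8.12 and 8.07, which did not overlap. Proximal mandible values were 8.51, 8.30 and 8.49 in controls and 7.91, 8.47 and 8.15 in knockouts, which did. Distal maxilla values were 9.13, 8.72 and 8.30 against 8.37, 8.43 and 8.15, also overlapping. In the proximal maxilla 8.92, 8.83 and 8.70 stood above 8.36, 8.60 and 8.64 with no overlap. The change over the regions was -0.42 (SE 0.08, adjusted p = 0.0347), with -0.75, -0.25, -0.40 and -0.28 in the single regions. The other Adamts6 probe set gave -0.54, also called (adjusted p = 0.0347). Next by p was Mmp17, at 0.24 (SE 0.059, adjusted p = 0.0543), which did not pass.

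Neither fall was secure. With 1 array left out at a time, both genes kept their sign in all 24 fits, at -0.53 to -0.44 for Adamts20 and -0.47 to -0.37 for Adamts6, but each stayed called in only 8 of the 24 (adjusted p up to 0.078). Those 8 were, for both, the fits without control maxilla distal 1, control mandible distal 2, knockout mandible proximal 2, control maxilla proximal 3, knockout mandible distal 3, knockout maxilla distal 3 and knockout maxilla proximal 3, with control mandible proximal 2 for Adamts20 and control maxilla distal 3 for Adamts6. The count of members called rose to 4 without control maxilla distal 1 or control mandible distal 2, to 5 without knockout mandible distal 3 and to 6 without knockout maxilla proximal 3. Without knockout maxilla proximal 1 and 2, the arrays with the highest neuron signal, they were -0.40 (adjusted p = 0.209) and -0.39 (adjusted p = 0.165). Without control maxilla 1 and knockout mandible 1 at both ends they were -0.43 (adjusted p = 0.101) and -0.32 (adjusted p = 0.0735), and without the Y-positive arrays Adamts6 was -0.45 (adjusted p = 0.0642). With genotype and array number as a random replicate block both calls were lost (adjusted p = 0.221 for each).

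**Figure D2:**
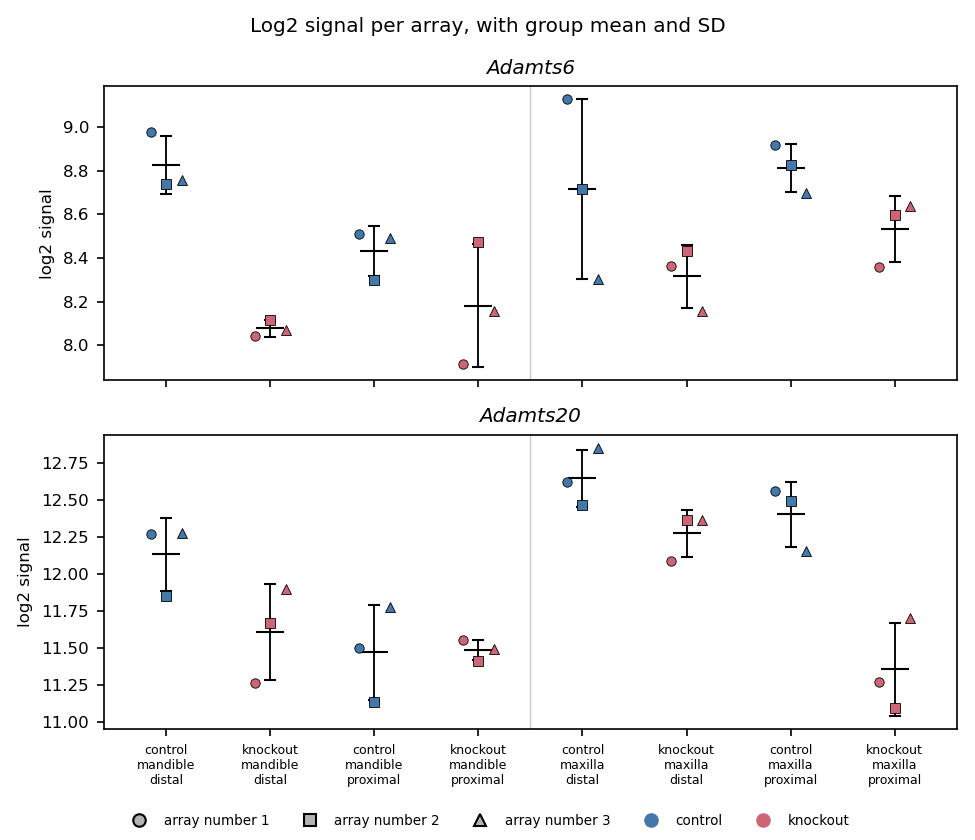
Log2 signal (vertical axis) of Adamts6 and Adamts20 in each of the 24 arrays by group; symbols mark the array number, colours the genotype, bars the group mean and SD. In the distal mandible the knockout values of Adamts6 (8.04 to 8.12) lie below the controls (8.74 to 8.98), and Adamts20 is lowest in the knockout proximal maxilla (11.09 to 11.70).

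The change had the same sign in all 4 regions for 12 members. Adamts6 was negative in all of them, and 11 were positive in all of them, against 14.9% of all genes positive and 13.9% negative in every region. The 11 were the versicanases Adamts1, Adamts5, Adamts9 and Adamts15, then Adamts12, Adamtsl2, Mmp9, Mmp14, Mmp17, Timp1 and Timp3. None of the 11 was called over the regions. The largest of their means were those of Mmp9 (0.60 (SE 0.24, adjusted p = 0.149)), Adamts12 (0.59 (SE 0.24, adjusted p = 0.152)), Adamts1 (0.44, SE 0.17), Adamts9 (0.42, SE 0.14) and Adamts5 (0.38, SE 0.14). All 4 TIMPs and all 5 membrane MMPs had positive means, with medians of 0.15 and 0.24, and 0 of them were called. Adamts1 and Adamts9 had their largest changes in the distal mandible, where several marker lists moved too. Skeletal muscle markers averaged 6.77 to 10.46 in its controls and 10.86 to 11.98 in its knockouts. Glial markers (5 of 7 genes with a probe set) were at 7.77 to 8.07 against 8.83 to 9.67. Facial mesenchyme markers were at 11.87 to 12.01 against 11.17 to 11.76, and bone markers (3 of 6 genes with a probe set) at 8.43 to 8.62 against 8.06 to 8.28. The other marker lists overlapped between these 2 groups. The part of these cells in the changes was not tested.

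**Figure D3:**
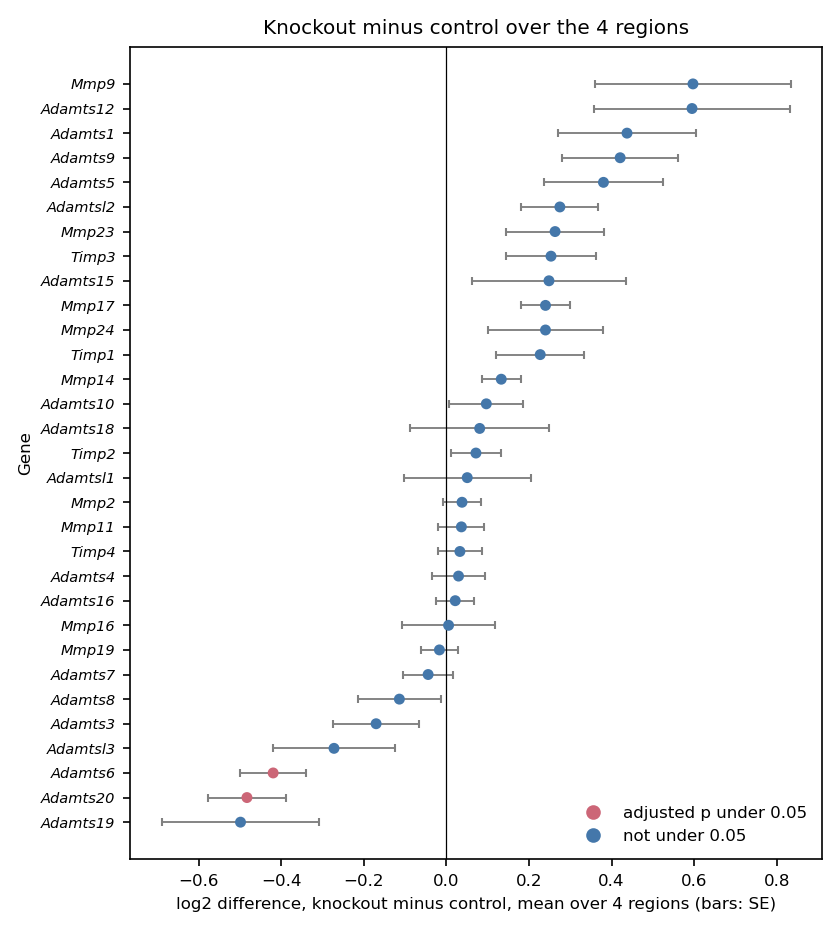
Log2 difference of knockout minus control as the mean over the 4 regions (horizontal axis) for each of the 31 genes, with SE bars; red marks an adjusted p under 0.05. Adamts6 and Adamts20 are red at -0.42 and -0.48, and 23 genes lie right of 0.

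In single regions few members passed. Counts with an unadjusted p under 0.05, here and below, are given without the share of all genes. They therefore say nothing special about the members. In the distal mandible 0 of 31 members were called (0.134% of all genes), and 8 had an unadjusted p under 0.05. The smallest p there belonged to Adamts6, -0.75 (SE 0.16, adjusted p = 0.0736), then Adamts1, 1.13 (SE 0.34, adjusted p = 0.178), and Adamtsl3, -0.98 (SE 0.29, adjusted p = 0.184). Adamts1 read 8.52, 9.47 and 8.94 in the controls and 10.94, 10.12 and 9.25 in the knockouts, which overlapped through knockout array 3. Adamtsl3 read 8.81, 8.79 and 8.60 against 7.17, 7.78 and 8.31, with every knockout below every control. Without knockout mandible distal 3 the count of members called was 3, and without control maxilla distal 1, control mandible distal 2 or control maxilla distal 3 it was 1. In the proximal mandible 0 members were called (0.0538% of all genes) and 2 had an unadjusted p under 0.05. The smallest p there were those of Mmp23 at 0.72 (SE 0.24, adjusted p = 1), Mmp14 at 0.23 (SE 0.093) and Adamts18 at 0.54 (SE 0.34). Mmp23, an MMP held in the membrane by its own N-terminal anchor, read 7.66, 7.89 and 7.47 in controls and 8.44, 7.86 and 8.87 in knockouts, which overlapped. In the distal maxilla 0 members were called (0.0202% of all genes) and 3 had an unadjusted p under 0.05. Mmp17 led there at 0.41 (SE 0.12), from 7.52, 7.67 and 7.71 in controls to 8.18, 8.04 and 7.92 in knockouts with no overlap, followed by Adamts6 at -0.40 and Mmp23 at 0.55 (adjusted p = 1 for each).

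The proximal maxilla had the most genes called, 5.77% of all, with 3.25% higher and 2.53% lower. There 1 of 31 members rose, Mmp24, and 1 fell, Adamts20. Adamts20 changed by -1.05 (SE 0.19, adjusted p = 0.0115), from 12.56, 12.49 and 12.15 to 11.27, 11.09 and 11.70, with no overlap. Mmp24 changed by 1.27 (SE 0.28, adjusted p = 0.0205), from 6.80, 6.96 and 7.03 to 8.89, 8.67 and 7.05. Next by p was Adamts19 at -1.08 (SE 0.38, adjusted p = 0.0895), from 7.85, 6.38 and 6.16 to 5.69, 5.33 and 6.12, of which the first 2 knockout values lie below the floor. The neuron markers moved with Mmp24: all 10 lay above the floor in every array of this group, their mean was 12.46, 12.25 and 10.38 in its arrays 1, 2 and 3, and it was 9.16 to 9.49 in the controls. The array with the neuron mean of 10.38 had Mmp24 at 7.05. That was just above the controls of this region, which reached 7.03, and below the 7.28 reached in the control proximal mandible. Other marker lists moved in the same arrays. Skeletal muscle markers averaged 8.88 to 11.56 in the knockouts against 6.97 to 7.65 in the controls, glial ones (5 of 7 genes with a probe set) 9.65 to 10.87 against 8.47 to 9.41 and macrophage ones 8.87 to 9.04 against 7.57 to 8.74. Epithelial markers were at 8.58 to 10.52 against 10.54 to 11.02 and facial mesenchyme markers at 10.84 to 11.73 against 11.67 to 12.06. The part of these cells in the 2 calls was not tested.

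Without knockout maxilla proximal 1 and 2, Mmp24 was at 0.12 and Adamts20 at -0.70, each with an adjusted p of 1, and 0 members were called. Both calls were also lost without the Y-positive arrays (adjusted p = 0.0993 for Adamts20 and 0.116 for Mmp24). The same held without both ends of control maxilla 1 and knockout mandible 1 (Adamts20 -0.97, adjusted p = 0.0834, and Mmp24 1.21, adjusted p = 0.101), and with only these 2 groups in the fit (adjusted p = 0.325 for both). The other 2 probe sets of Mmp24 gave 0.18 and 0.12 and were not called. Leaving out single arrays ended the Mmp24 call for knockout maxilla proximal 1 (0.93) and 2 (1.04) and for control maxilla proximal 1 (1.21), 2 (1.29) and 3 (1.32). The Adamts20 call ended without control maxilla proximal 1 (-0.97), knockout maxilla proximal 1 (-1.01) or 2 (-0.92). Without knockout maxilla proximal 3, the array of this group that correlated more with the distal end, the count of members called was 8.

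**Figure D4:**
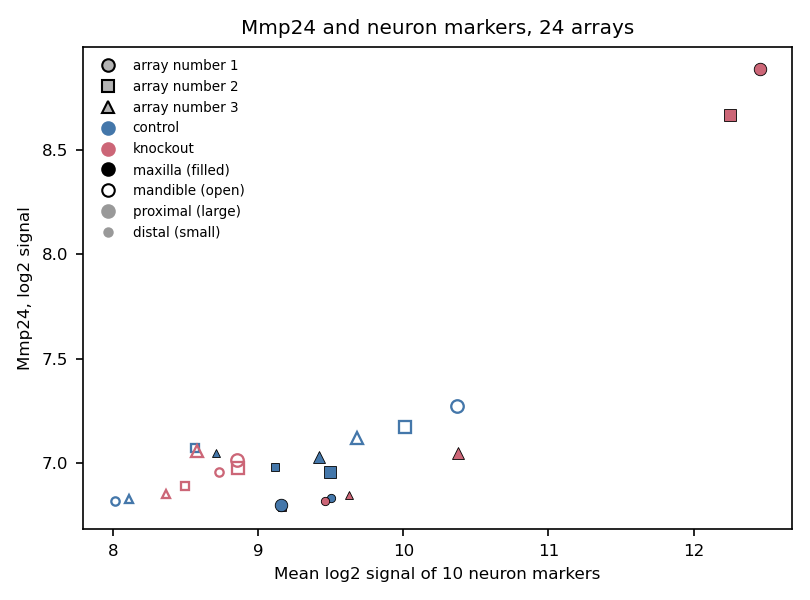
Mmp24 log2 signal (vertical axis) against the mean log2 signal of 10 neuron markers (horizontal axis) in the 24 arrays; colour gives genotype, symbol the array number, filling the jaw and size the end. Knockout maxilla proximal 1 and 2 lie alone at the upper right, at 8.89 and 8.67 for Mmp24 and at 12.46 and 12.25 for the markers.

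Whether the knockout change differed between regions was tested directly. Between the jaws 0 of 31 members were called (0.0336% of all genes), and 3 had an unadjusted p under 0.05: Mmp19 (-0.22 (SE 0.088, adjusted p = 0.648)), Adamts20 (0.46 (SE 0.19, adjusted p = 0.676)) and Mmp24 (-0.66 (SE 0.28, adjusted p = 0.682)), given as mandible minus maxilla. Between the ends 0 were called (0.00672% of all genes), and 3 had an unadjusted p under 0.05: Timp4 (-0.24 (SE 0.11, adjusted p = 1)), Adamts8 (-0.46, SE 0.20) and Mmp24 (-0.62, SE 0.28), given as distal minus proximal. Without knockout maxilla proximal 3 each count was 1. The differences among the regional values above are thus not shown to exceed the spread between arrays.

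The jaws were compared within each genotype, which asks how the normal lower and upper face differ and whether the same holds in the knockouts. In the controls 11 of 31 members differed between mandible and maxilla, as did 30.9% of all genes. Of these, 8 were higher in the mandible, against 16.2% of all genes, and 3 were lower, against 14.7%. The higher ones were the proteases Adamts8, Adamts4, Mmp9, Mmp11, Mmp17 and Mmp19 and the inhibitors Timp1 and Timp3, and the lower ones were Adamts20, Adamts3 and Mmp2. Mmp19 lay above the floor in only 3 of the 24 arrays, all of them mandibles, so it passed the filter only through the jaw where it was called higher and its call supports nothing. A share of 11 in 31 is close to that of all genes, so the count says nothing special about this family. The median change was 0.11 for the members and 0.02 over all genes. Other cells differed between these jaws: skeletal muscle markers had a mean of 6.77 to 11.51 with a median of 10.82 in control mandibles and of 6.48 to 8.25 with a median of 7.21 in control maxillae. Epithelial markers had medians of 10.04 and 10.83 (8.63 to 10.66 and 10.24 to 11.24). Their part in the jaw calls was not tested.

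Adamts3 ran from 9.14 to 10.05 with a median of 9.61 in the 6 control mandible arrays and from 10.11 to 10.42 with a median of 10.30 in the 6 control maxilla arrays, with no overlap. Its difference, mandible minus maxilla, was -0.68 (SE 0.15, adjusted p = 0.00218), although a second, dimmer probe set gave -0.04. Adamts20 ran from 11.14 to 12.28 with a median of 11.81 in mandibles and from 12.15 to 12.85 with a median of 12.53 in maxillae, overlapping only where a proximal maxilla array fell to 12.15. The difference was -0.72 (SE 0.14, adjusted p = 0.000712). These 2 were the ADAMTS enzymes called lower in the mandible, 1 acting on procollagen and 1 on versican. Others with a negative difference did not pass, among them Adamts19 at -0.60 (SE 0.27, adjusted p = 0.102) and Adamts18 at -0.45 (SE 0.24, adjusted p = 0.163).

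Adamts8 had the smallest p of the 31 members. It ran from 7.44 to 8.60 with a median of 7.77 in control mandibles and from 6.68 to 6.98 with a median of 6.82 in control maxillae, with no overlap and a difference of 1.09 (SE 0.14, adjusted p = 3.69e-05). Adamts4 ran from 9.29 to 9.75 with a median of 9.43 against 8.79 to 9.25 with a median of 9.05, again without overlap, and differed by 0.43 (SE 0.089, adjusted p = 0.00159), while its other probe set gave 0.20. Its neighbour in function, Adamts9, was not called at 0.39 (SE 0.20, adjusted p = 0.15), nor was Adamts15, the genomic neighbour of Adamts8, at 0.64 (SE 0.26).

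Mmp9 ran from 6.74 to 9.10 with a median of 7.91 in control mandibles and from 6.18 to 6.93 with a median of 6.88 in control maxillae. Only distal mandible 3, at 6.74, fell among the maxilla values, and the difference was 1.24 (SE 0.33, adjusted p = 0.00915), with 0.96 from its other probe set. Macrophages and vessels are known sources of Mmp9, and the means of their marker lists (9 and 8 genes) were 8.25 to 8.87 and 9.47 to 9.95 in control mandibles against 7.57 to 8.74 and 9.03 to 9.91 in control maxillae. Their part in the result was not tested. Mmp11 ran from 10.48 to 10.73 with a median of 10.65 against 10.10 to 10.54 with a median of 10.33 and differed by 0.31 (SE 0.078, adjusted p = 0.00662), with overlap at 1 distal maxilla array. Mmp17 ran from 7.84 to 8.05 with a median of 7.94 against 7.39 to 7.72 with a median of 7.63, without overlap, and differed by 0.34 (SE 0.084, adjusted p = 0.00472). Mmp19 differed by 0.26 (SE 0.062, adjusted p = 0.00421), at values of 5.79 to 6.03 in mandibles and 5.59 to 5.71 in maxillae, with 4 of the 6 mandible and all 6 maxilla arrays below the floor, so both sides are at background and the difference gives no size of a change. Mmp2 was the single MMP called lower in the mandible, 12.54 to 12.63 with a median of 12.58 against 12.67 to 12.84 with a median of 12.77, a difference of -0.18 (SE 0.066, adjusted p = 0.0399) without overlap. Mmp16 stood lower by more, at -0.33 (SE 0.16, adjusted p = 0.129), and was not called.

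Timp1 ran from 9.28 to 9.66 with a median of 9.48 in control mandibles and from 8.50 to 9.22 with a median of 8.97 in control maxillae, with no overlap, and differed by 0.59 (SE 0.15, adjusted p = 0.00643). Timp3 ran from 10.47 to 11.48 with a median of 11.14 against 10.05 to 10.78 with a median of 10.44, with distal mandible 3 (10.47) inside the maxilla range, and differed by 0.62 (SE 0.16, adjusted p = 0.00563). All 3 further Timp3 probe sets were also called, at 0.63 to 1.23. Timp2, which works with Mmp2 and Mmp14, was not called, at -0.06 (SE 0.086, adjusted p = 0.626). Timp4 stood at 0.16 (SE 0.075) and was not called either.

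Leaving out single arrays moved the control jaw calls little and kept 10 to 12 members called, with 10 of the 11 named genes called in all 24 such fits. Mmp2 was the exception, lost in 9 fits, each without 1 control array (all but control mandible distal 2, control maxilla distal 3 and control maxilla proximal 3), at -0.19 to -0.17. Without the 4 Y-positive arrays 5 members stayed called, and Mmp9 (1.03), Timp1 (0.60), Timp3 (0.49), Mmp17 (0.35), Mmp19 (0.26) and Mmp2 (-0.19) did not, with adjusted p of 0.0568 to 0.17.

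**Figure D5:**
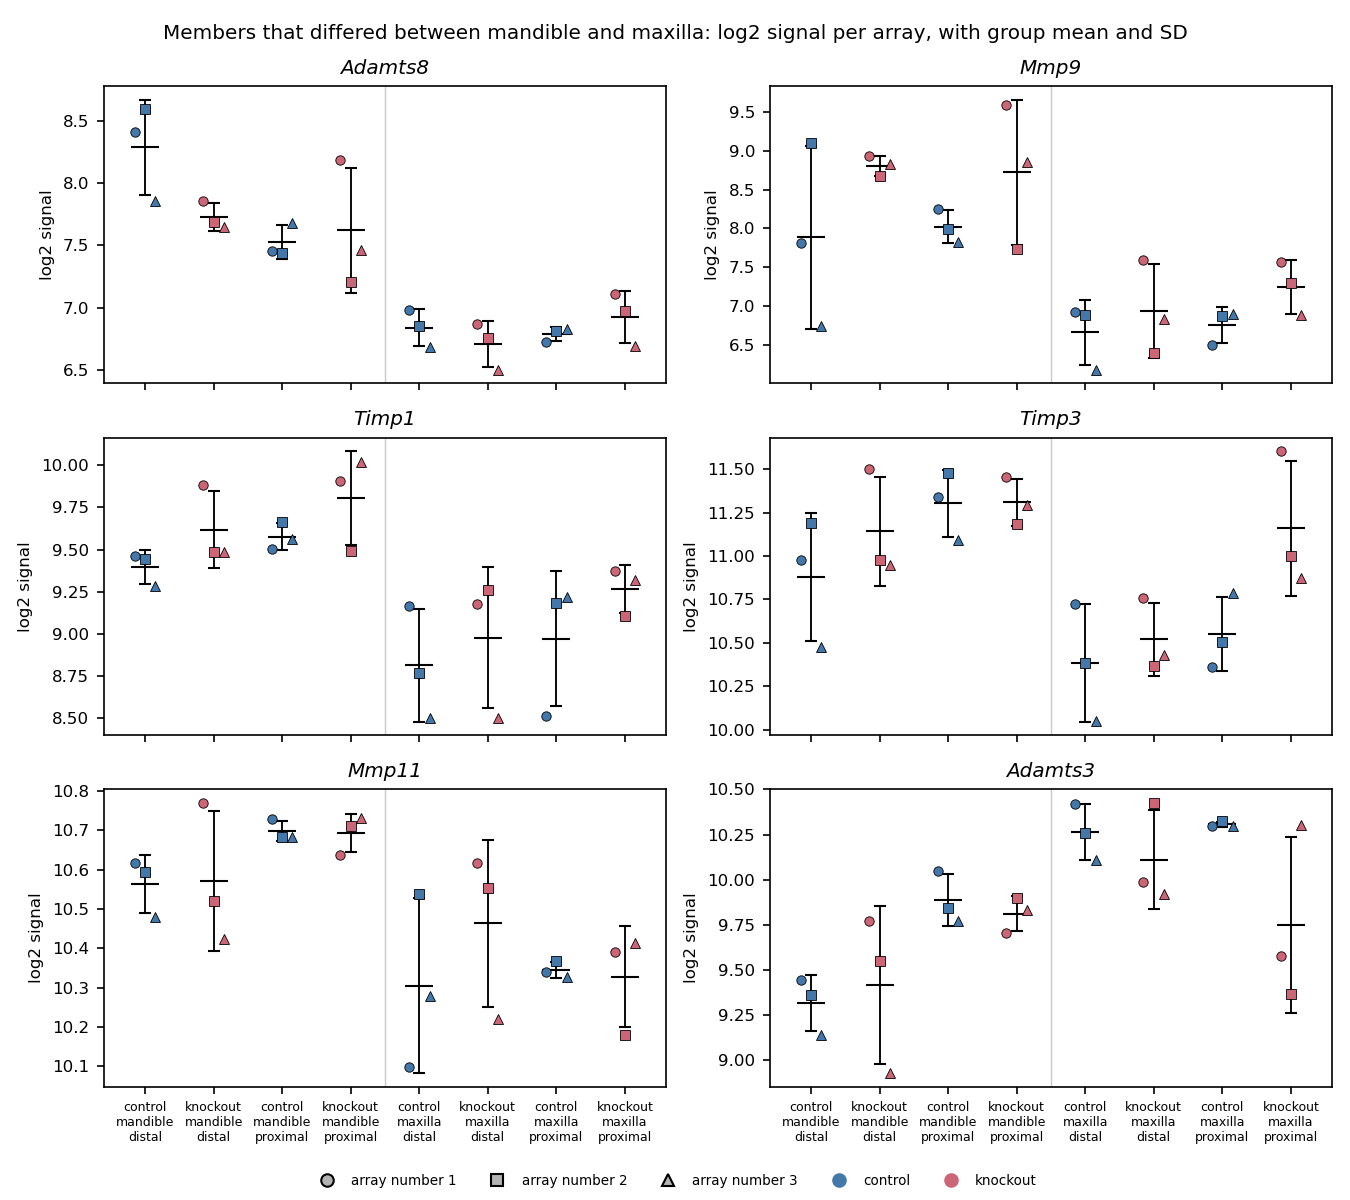
Log2 signal per array (vertical axes) of 6 members that differed between the control jaws, by group, with array number as symbol, genotype as colour and group mean and SD as bars. Adamts8, Mmp9, Timp1 and Mmp11 have their higher means in the mandible groups left of the grey line, and Adamts3 has its higher control means to the right. Timp3 has its higher control means on the left, but its knockout proximal maxilla mean exceeds both distal mandible means.

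In the knockouts 5 of 31 members differed between the jaws, as did 25.4% of all genes: 4 were higher in the mandible (13.2% of all genes) and 1 was lower (12.1%). Adamts8 ran from 7.21 to 8.18 with a median of 7.67 against 6.50 to 7.11 with a median of 6.81, Mmp9 from 7.73 to 9.59 with a median of 8.84 against 6.40 to 7.60 with a median of 7.09 and Timp1 from 9.49 to 10.02 with a median of 9.69 against 8.50 to 9.37 with a median of 9.22, and none of the 3 overlapped. Their differences were 0.86 (SE 0.14, adjusted p = 0.00047), 1.67 (SE 0.33, adjusted p = 0.00187) and 0.59 (SE 0.15, adjusted p = 0.00882). Mmp11 followed at 0.24 (SE 0.078, adjusted p = 0.0343), from 10.42 to 10.77 with a median of 10.67 against 10.18 to 10.62 with a median of 10.40, which overlapped. These arrays share none with the controls, in which the same 4 genes were called in the same direction. Timp3 at 0.39 (SE 0.16, adjusted p = 0.0752) and Adamts20 at -0.27 (SE 0.14) kept their sign and did not pass. Whether a jaw difference changed with genotype is the test between jaws given above, in which 0 members passed.

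The member lower in the knockout mandible was Mmp24, at -0.55 (SE 0.20, adjusted p = 0.0493). It read 6.85 to 7.06 with a median of 6.97 in mandibles and 6.79 to 8.89 with a median of 6.95 in maxillae, where only proximal arrays 1 and 2 exceeded the mandible. Without these 2 arrays the sign reversed (0.025, adjusted p = 0.833), its other probe sets gave 0.073 and 0.047, and it stayed called in only 1 of the 24 fits with an array left out (without knockout maxilla proximal 3, -0.84). Mmp11 was lost in 5 such fits: without knockout mandible distal 1, knockout mandible proximal 2 or 3, knockout maxilla proximal 2 or knockout maxilla distal 3, at 0.18 to 0.23. With knockout maxilla proximal 1 and 2 left out it was 0.19 (adjusted p = 0.182) and Timp1 0.56 (adjusted p = 0.0572), neither called. Without both ends of control maxilla 1 and knockout mandible 1 Mmp11 (0.20, adjusted p = 0.0823) and Mmp24 (adjusted p = 0.125) were lost. Muscle markers had medians of 11.45 in knockout mandibles and 9.29 in knockout maxillae, whose part was not tested.

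The starts of 4 genes that separated the control jaws are shown because they moved in pairs, Adamts20 and Adamts3 down and Timp1 and Timp3 up in the mandible. RefSeq promoters were found for 16 of the 31 members. The 250 bases before the annotated start (GRCm38.p6) of Adamts20 (chr15:94404351-94404600, minus strand), Adamts3 (chr5:89883335-89883584, minus strand), Timp1 (chrX:20869916-20870165, plus strand) and Timp3 (chr10:86300162-86300411, plus strand) are printed in the direction of the gene. Capitals mark matches on either strand to CAGAC (the Smad box) and GGGCGG (the GC box).
Adamts20: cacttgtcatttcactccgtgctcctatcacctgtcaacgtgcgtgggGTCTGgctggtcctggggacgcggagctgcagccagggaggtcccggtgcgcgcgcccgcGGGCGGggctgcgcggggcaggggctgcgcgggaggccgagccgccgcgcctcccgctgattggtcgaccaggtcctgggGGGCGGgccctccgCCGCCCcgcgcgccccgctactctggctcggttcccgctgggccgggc
Adamts3: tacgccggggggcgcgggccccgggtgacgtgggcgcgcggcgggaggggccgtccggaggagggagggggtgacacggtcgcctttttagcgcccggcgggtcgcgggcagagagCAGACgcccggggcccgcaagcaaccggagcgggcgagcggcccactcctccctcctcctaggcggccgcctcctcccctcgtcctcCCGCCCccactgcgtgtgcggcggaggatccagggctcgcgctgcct
Timp1: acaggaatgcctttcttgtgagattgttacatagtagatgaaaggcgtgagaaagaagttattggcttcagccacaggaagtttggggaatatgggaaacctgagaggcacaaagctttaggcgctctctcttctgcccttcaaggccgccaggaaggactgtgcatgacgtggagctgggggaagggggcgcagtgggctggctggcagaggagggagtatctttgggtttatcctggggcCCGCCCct
Timp3: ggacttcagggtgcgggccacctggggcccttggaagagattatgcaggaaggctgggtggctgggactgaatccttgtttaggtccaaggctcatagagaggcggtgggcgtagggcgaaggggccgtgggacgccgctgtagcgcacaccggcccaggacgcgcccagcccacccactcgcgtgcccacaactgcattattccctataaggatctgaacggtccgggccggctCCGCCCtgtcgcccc

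In these windows Adamts20 had 1 Smad box and 3 GC boxes and Adamts3 had 1 of each, while Timp1 and Timp3 had 1 GC box each. Mmp11, also called higher in the control mandible, had 1 Smad box and 2 GC boxes in its window, which is not printed. The Smad box was thus not confined to genes lower in the mandible. Over the 16 members the Smad box was matched in 8 and the GC box in 13, against 42.1% and 32.9% of 27025 promoters of the same length. TGANTCA (the AP-1 site) and TAATTA (a homeobox core) were matched in 0 of 16, against 6.87% and 4.90% of all promoters. No matches of different motifs overlapped in the members' windows. A match is a string of letters and was not tested as a site.

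The ends of each jaw were compared next. In the control mandible 4 of 31 members differed between distal and proximal, as did 3.45% of all genes: 2 were higher distally (1.11% of all genes) and 2 were lower (2.34%). Adamtsl3 read 8.81, 8.79 and 8.60 distally and 7.25, 7.01 and 7.47 proximally, a difference of 1.49 (SE 0.29, adjusted p = 0.0133). Adamts8 read 8.41, 8.60 and 7.86 against 7.45, 7.44 and 7.68, a difference of 0.76 (SE 0.20, adjusted p = 0.0448). In neither did the ends overlap. Adamts1 read 8.52, 9.47 and 8.94 distally and 10.31, 10.62 and 10.44 proximally, a difference of -1.48 (SE 0.34, adjusted p = 0.0225). Adamts9 read 10.64, 10.63 and 10.13 against 11.56, 11.44 and 11.59, a difference of -1.07 (SE 0.28, adjusted p = 0.0443), and its other probe sets gave -0.85 and -0.20. These versicanases were thus higher in the proximal control mandible, with no overlap of the ends.

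Other cells differed between these ends. The mean of the skeletal muscle markers was 6.77 to 10.46 in the distal and 11.19 to 11.51 in the proximal control mandible. That of the neuron markers was 8.01 to 8.56 and 9.68 to 10.37, and that of epithelial markers 10.28 to 10.66 and 8.63 to 9.80. Their part in the 4 results was not tested. Without the Y-positive arrays 0 members were called here, and without control mandible proximal 1 or 2 or control mandible distal 1 also 0, at changes of 1.37 to 1.49 for Adamtsl3 and -1.55 to -1.26 for Adamts1. The count was 1 without control mandible distal 3 or proximal 3, 2 without control maxilla proximal 2 or 3, knockout mandible distal 2 or knockout maxilla distal 2, and 7 without knockout maxilla proximal 3. Adamts8 (0.61 to 0.98) and Adamts9 (-1.15 to -0.90) were lost in 15 and 12 of the 24 fits with an array left out, with adjusted p up to 0.16 and 0.214.

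In the control maxilla 0 of 31 members differed between the ends (0% of all genes in limma), and 0 had an unadjusted p under 0.05. The smallest p were those of Adamts20 (0.24, SE 0.19), Adamtsl2 (-0.22, SE 0.19) and Adamts9 (-0.29, SE 0.28). The knockout mandible also gave 0 members (0% of all genes), 0 of them with an unadjusted p under 0.05, led by Adamts3 (-0.39, SE 0.21), Adamtsl3 (0.42, SE 0.29) and Adamts1 (-0.42, SE 0.34). Both jaws include an array pair in which each array correlated more with the opposite end than with its own group. For control maxilla 1 the correlations were 0.69 against 0.36 (distal array) and 0.69 against 0.54 (proximal array). For knockout mandible 1 they were 0.68 against 0.33 and 0.60 against 0.44. Whether the ends of these pairs were exchanged was not tested. Without those pairs 0 members were called in either. Those fits have fewer arrays at each end, and the main fits average over the doubted pairs. The absence of calls thus does not show that the ends were alike. The test of whether the end difference of the controls differed between mandible and maxilla called 0 members (0% of all genes), with an unadjusted p under 0.05 for 5, led by Adamtsl3 (1.47 (SE 0.42, adjusted p = 0.416)), Adamts1 (-1.31 (SE 0.47, adjusted p = 0.581)) and Adamts8 (0.71, SE 0.29).

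In the knockout maxilla 3 of 31 members differed between the ends, as did 6.16% of all genes: 1 was higher distally (2.9% of all genes) and 2 were lower (3.26%). Adamts20 read 12.09, 12.37 and 12.36 distally and 11.27, 11.09 and 11.70 proximally, a difference of 0.92 (SE 0.19, adjusted p = 0.0151). Adamtsl2 read 8.29, 8.17 and 7.68 against 8.86, 8.70 and 8.51, a difference of -0.64 (SE 0.19, adjusted p = 0.0496). Mmp24 read 6.82, 6.79 and 6.85 against 8.89, 8.67 and 7.05, a difference of -1.38 (SE 0.28, adjusted p = 0.0141). The other Mmp24 probe sets gave -0.22 and -0.054 and were not called. None of the 3 genes overlapped between the ends. The neuron markers averaged 9.16 to 9.62 in the distal arrays against 10.38 to 12.46 in the proximal ones, and the muscle markers 6.41 to 9.71 against 8.88 to 11.56. Macrophage markers were at 8.17 to 8.48 against 8.87 to 9.04, and glial ones at 9.10 to 9.25 against 9.65 to 10.87. Epithelial markers were at 11.09 to 11.28 against 8.58 to 10.52, and facial mesenchyme markers at 11.72 to 11.89 against 10.84 to 11.73. The part of these cells in the 3 results was not tested. Without knockout maxilla proximal 1 and 2 the changes were 0.57, -0.46 and -0.23, with an adjusted p of 1 for each. All 3 calls were also lost without array 1 or 2 of these alone, at 0.88 and 0.79 for Adamts20, -0.56 and -0.64 for Adamtsl2 and -1.04 and -1.15 for Mmp24. Without knockout maxilla distal 2 Adamts20 (0.87) was lost too, and Adamtsl2 was called in 6 of the 24 fits in all: those without control maxilla proximal 1 or distal 1 or 2, knockout mandible distal 1, knockout maxilla distal 1 or knockout maxilla proximal 3. Without that last array 7 members were called. Without the Y-positive arrays Adamtsl2 (adjusted p = 0.0797) and Mmp24 (adjusted p = 0.0609) were lost, and with only these 2 groups in the fit all 3 were (adjusted p of 0.29 to 0.328).

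No call in any of the 14 comparisons was made for 14 of the 31 members. Adamts5, the main aggrecanase of adult cartilage, gave its highest single value, 10.69, in knockout maxilla proximal 1. In controls the Adamts5 means were 9.00 ± 0.44 and 9.28 ± 0.03 at the distal and proximal mandible and 9.03 ± 0.34 and 9.32 ± 0.22 at the distal and proximal maxilla. The knockout means, in the same order, were 9.38 ± 0.57, 9.51 ± 0.08, 9.30 ± 0.16 and 9.96 ± 0.64. Adamts12, which cuts matrix proteins of cartilage, varied widely between arrays of a group. For Adamts12 the control groups stood at 8.21 ± 0.42 (distal mandible), 8.66 ± 0.16 (proximal mandible), 8.56 ± 1.04 (distal maxilla) and 8.83 ± 0.74 (proximal maxilla). Knockout arrays gave 8.98 ± 0.82, 9.24 ± 0.32, 8.79 ± 0.59 and 9.63 ± 0.38 in that order. The control maxilla arrays, by number, read 9.75, 8.05 and 7.87 distally and 7.98, 9.36 and 9.14 proximally. The large SDs there came from control maxilla 1, whose arrays each correlated more with the opposite end. The Adamts12 change over the regions was 0.59 (SE 0.24), with a sign shared by all 4 regions. Adamts15 cuts versican in muscle and limb. Adamts15 averaged 10.23 ± 0.77 distally and 10.54 ± 0.15 proximally in the control mandible, against 9.66 ± 0.63 and 9.84 ± 0.72 in the control maxilla. In the knockouts Adamts15 stood at 10.60 ± 0.45, 10.69 ± 0.30, 9.75 ± 0.26 and 10.22 ± 0.09. Adamts18 acts in eye and lung branching. In controls the Adamts18 means were 7.44 ± 0.06 and 6.94 ± 0.41 at the distal and proximal mandible and 7.65 ± 0.46 and 7.63 ± 0.15 at the distal and proximal maxilla. Its knockout counterparts were 7.73 ± 0.09, 7.48 ± 0.61, 7.95 ± 0.26 and 6.83 ± 0.83. Its 2 lowest arrays, at 6.52 and 6.20, were again knockout maxilla proximal 1 and 2, beside 6.52 in control mandible proximal 3. Adamts7 and Adamts16 moved little. For Adamts7 the control groups stood at 9.36 ± 0.12 (distal mandible), 9.51 ± 0.06 (proximal mandible), 9.50 ± 0.19 (distal maxilla) and 9.59 ± 0.08 (proximal maxilla). Adamts7 in the knockouts gave 9.40 ± 0.11, 9.44 ± 0.24, 9.52 ± 0.21 and 9.41 ± 0.12, in the same order. Adamts16 averaged 7.85 ± 0.17 distally and 7.84 ± 0.13 proximally in the control mandible, against 7.79 ± 0.15 and 7.81 ± 0.07 in the control maxilla. Among knockout groups the means were 7.96 ± 0.06, 7.90 ± 0.10, 7.74 ± 0.09 and 7.78 ± 0.06. Adamts7 is linked to vascular disease and Adamts16 to kidney and testis.

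The uncalled membrane MMPs and inhibitors were Mmp14, Mmp16, Mmp23, Timp2 and Timp4. Mmp16 acts at the surface of mesenchymal cells together with Mmp14. In controls the Mmp16 means were 9.49 ± 0.21 and 9.98 ± 0.09 at the distal and proximal mandible and 9.98 ± 0.43 and 10.14 ± 0.30 at the distal and proximal maxilla. The knockout means, in the same order, were 9.83 ± 0.42, 9.98 ± 0.10, 9.72 ± 0.28 and 10.08 ± 0.30. Its lowest mean was in the control distal mandible. For Mmp23 the control groups stood at 8.52 ± 0.15 (distal mandible), 7.67 ± 0.21 (proximal mandible), 7.82 ± 0.44 (distal maxilla) and 7.78 ± 0.15 (proximal maxilla). Knockout arrays gave 8.32 ± 0.28, 8.39 ± 0.51, 8.37 ± 0.29 and 7.76 ± 0.24 in that order. The proximal knockout maxilla held the lowest of its knockout means. In controls it was higher distally in the mandible by 0.85 (SE 0.24, adjusted p = 0.0581), just outside the threshold. For Mmp14 the knockout change over the regions was 0.13 (SE 0.047, adjusted p = 0.119). The partner inhibitor Timp2 stood at 0.07 (SE 0.061).

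The other genes of the pathway came from 4 lists. Of 16 further MMPs, ADAMTS and ADAMTS-like genes, 11 had a probe set and 3 passed the filter, and none of these 3 was called in any of the 14 comparisons. Of 17 regulators, 20 other matrix proteases and related enzymes and 20 substrates, 17, 18 and 19 were tested. In the knockout comparison over the regions 0 of each were called, with median changes of 0.17, 0.14 and 0.04 against 0.01 over all genes. In the proximal maxilla the regulators had 1 gene higher and 2 lower in the knockouts. The protease inhibitor Cst3 rose by 0.36, and the proprotein convertase Pcsk5 (-0.89) and the proteoglycan Sdc4 (-0.63) were lower. The membrane protease Adam19 (0.67) was the single protease called there and the neural proteoglycan Ncan (2.29) the single substrate, with adjusted p of 0.0263 to 0.0465 for the 5. Between the ends of the knockout maxilla Pcsk5 (0.79), Sdc4 (0.79), Adam19 (-0.86) and Ncan (-2.26) were called again, given as distal minus proximal. In the control mandible the peptidase Mme was higher distally (1.01 (SE 0.21, adjusted p = 0.0145)). Over the last 3 lists 5 of 54 genes tested (9.26%) were called in the proximal maxilla, against 5.77% of all genes. Between the ends of the knockout maxilla 4 of 54 (7.41%) were called, against 6.16% of all genes. For the ends of the control mandible it was 1 of 54 (1.85%), against 3.45%.

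In the control jaws 1 regulator was higher in the mandible, the matrix protein Fbln1 (0.34), and 3 were lower: the procollagen enhancer Pcolce (-0.38), Sdc4 (-0.35) and the clearance receptor Lrp1 (-0.12). Of the other proteases and related enzymes the serine protease Htra1 (0.77) and Hpse (0.58) were higher and Plat, tissue plasminogen activator, was lower (-0.67). Hpse is the heparanase gene and does not code for a protease. The substrates called were all lower: the growth factor Vegfa (-0.30), the large glycoprotein Reln (-1.05) and the fibrillin Fbn2 (-0.24). In the knockout jaws Htra1 (0.94), Hpse (0.81), Reln (-0.997) and Lrp1 (-0.13) were called again. Adam12 (0.94), Col3a1 (0.13), Adam10 (-0.18) and Ncan (-1.63) were called in the knockout jaws and not in the control jaws. Over these 3 lists 10 of 54 genes tested (18.5%) were called in the controls, against 30.9% of all genes. In the knockouts 8 of 54 (14.8%) were called, against 25.4% of all genes.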

How the data were processed

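Log2 signal of 24 single-colour arrays (45101 probe sets) was deposited by the authors. They used RMA, per the submitters' processing notes, in a software version not stated here. RMA summarises probes after quantile normalisation, which makes arrays comparable and compresses low signal. No further normalisation was applied. Of the probe sets, 34945 had 1 gene symbol in the platform annotation (34741 matched to RefSeq genes by Entrez number), 932 had several, 9160 had none and 64 were controls.

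Genes above the 30th percentile of their array in at least 3 arrays were tested. Limma 3.58.1 (R 4.3.3) fitted 8 group means to the 24 arrays (16 residual degrees of freedom), with a two-sided moderated test of 14 contrasts and Benjamini-Hochberg adjustment. The fit was tested on simulated data. Arrays were grouped by the labels' genotype, jaw and end. Alternatives were scaling (median centring, cyclic loess), filters, probe set choice, prior, array weights, samples in the fit, number blocks and left-out arrays; leaving out knockout maxilla proximal 1 and 2 was added after seeing the data.

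The members, roles, marker lists and pathway lists were chosen with earlier results of these data known. Every member called is named, with those of smallest p up to 3 where fewer were called. Members called anywhere, and the highest and lowest of each role, have all group values. Of the other lists, called genes are named, up to 4 a comparison. Other group values were added after they were seen. Promoters come from RefSeq (GRCm38.p6). A marker mean is the mean log2 signal of a list's genes. The number of arrays limits the precision.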

Additional observations from a re-analysis of the deposited data

Results flagged for a closer look

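In 4 genes every array of a group moved one way against its comparison group while every array of a second pair of groups moved the other way. The share of all genes that do so was not counted, so the number 4 says nothing special about this family. The 2 moves were not tested against each other directly, except where stated.

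Adamtsl2 was higher in the mandible than in the maxilla at the distal end of the knockouts (0.44) and lower at the proximal end (-0.31). Mmp24 was lower in the knockout proximal mandible (-0.17) and higher in the knockout proximal maxilla (1.27). For Mmp24 the test of the knockout change between jaws, averaged over ends, gave -0.66 (SE 0.28, adjusted p = 0.682, limma). Mmp19 was lower in the knockout distal mandible (-0.17) and higher in the knockout proximal maxilla (0.099), at values near the floor, and the same test gave -0.22 (SE 0.088, adjusted p = 0.648). Timp4, also near the floor, was higher distally in the control mandible (0.15) and lower distally in the knockout maxilla (-0.24).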

How the results depend on the processing

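Counts of members called depended on single arrays. With each array left out in turn they ranged from 0 to 6 (main count 2) for knockout against control over the regions, 0 to 3 (0) in the distal mandible, 0 to 8 (2) in the proximal maxilla, and 0 to 1 (0) for the knockout change between jaws and between ends. They were 10 to 12 (11) between control jaws, 3 to 6 (5) between knockout jaws, 0 to 7 (4) and 0 to 7 (3) between the ends of the control mandible and the knockout maxilla, and 0 in the 5 other comparisons. Over the named calls, all 648 such fits kept the direction and 512 the call.

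Array weights raised the counts: 11 over the regions, 4, 1 and 6 in the distal mandible, proximal mandible and proximal maxilla, 1 for the knockout change between jaws, 17 and 9 between control and knockout jaws, 10 and 8 between the ends of the control mandible and knockout maxilla, and 2 for the end difference between control jaws. With genotype and number as a random replicate block the counts were 0 over the regions (adjusted p = 0.221 for both genes), 8 between knockout jaws, 6 between the ends of the control mandible and 6 between those of the knockout maxilla. With number as a fixed replicate block they were 3 over the regions, 3 in the proximal maxilla, 11 and 6 between control and knockout jaws, and 5 and 4 between those ends. Same genotype and number correlated with a median of 0.15 (over 0.1 in 23 of 36 pairs, against 12 of 72 with another number), the same number across genotypes with a median of 0.04, and the 4 control arrays numbered 2 alone were Y-positive. The labels do not say whether a number marks shared embryos, and not every pair correlated. With only the groups compared they were 0 in the proximal maxilla, 7 and 0 between those same ends, and 1 for the end difference between control jaws. Without the 4 Y-positive arrays the counts were 1 over the regions, 0 in the proximal maxilla, 5 between control jaws, and 0 and 1 between those ends. Without control maxilla 1 and knockout mandible 1 they were 0, 0, 3 (knockout jaws) and 5 (knockout maxilla ends). Without knockout maxilla proximal 1 and 2 they were 0 over the regions, 0 in the proximal maxilla, 7 between control mandible ends and 0 between knockout maxilla ends. With the mean of all probe sets 1 member was called in the distal mandible. Other settings (median centring, cyclic loess, the filters, the prior) kept each count within 1.5 times the main one. The 3 reversals were all of Mmp24 between knockout jaws (main -0.55): 0.025 without knockout maxilla proximal 1 and 2, and 0.073 and 0.047 with its other probe sets. The causes were not tested. Median centring and cyclic loess turned no sign of a named call. The number of arrays and, for Mmp19, Timp4 and Adamts19, the signal over background limit what can be seen.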
